A study of Caenorhabditis elegans with 30 samples.

Results

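The 9 genes described here encode proteins that modify, cut and crosslink collagen in the nematode Caenorhabditis elegans. They are dpy-18, phy-2, pdi-2, bli-4, dpy-31, bli-3, mlt-7, tsp-15 and dpy-11. They were chosen by their public names and matched to the gene identifiers of the count table, which gave 9 of 46911 worm genes in the files. The larvae hatched in the absence of food and so halted at the first larval stage, a state called L1 arrest. Larvae of 2 genotypes were compared: irld, the strain LRB444, which carries irld-39(duk1) and irld-52(duk17), and N2, the wild type. Both were kept in S-basal, a salt buffer without food, at 20 °C, and were sampled once arrested for 6, 12, 24, 48 or 72 h, times that correspond to 18, 24, 36, 60 or 84 h from bleaching. With 3 biological replicates for every genotype and time there were 10 groups and 30 libraries of polyadenylated RNA from whole larvae. The labels do not say what the duk1 and duk17 alleles remove.

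The cuticle of C. elegans is an extracellular matrix made largely of collagens that the underlying hypodermis secretes, and a new one is made at each stage. In the endoplasmic reticulum a prolyl 4-hydroxylase, built of catalytic alpha subunits and protein disulfide isomerase as beta subunit, hydroxylates prolines so that the collagen triple helix is stable. Proteases then trim the ends of the procollagens, and outside the cell a dual oxidase and a peroxidase join tyrosines of neighbouring chains. Loss of these activities gives dumpy, blistered or molting-defective worms. L1 arrest holds development before the first molt.

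The members lie on several chromosomes (WBcel235 coordinates, Ensembl 115 annotation; all protein-coding). dpy-18 (WBGene00001077) lies on III from 11372886 to 11377980 and phy-2 (WBGene00004025) on IV from 12211097 to 12215987, both on the minus strand, and pdi-2 (WBGene00003963) lies on X from 4524155 to 4526536 on the plus strand. bli-4 (WBGene00000254) lies on I from 6342224 to 6356680, and dpy-31 (WBGene00006592) on III from 7202206 to 7207664, both on the plus strand. bli-3 (WBGene00000253) lies on I from 145968 to 154855 on the minus strand, mlt-7 (WBGene00022743) on II from 4393007 to 4404850 on the plus strand, and tsp-15 (WBGene00006641) on I from 8928750 to 8931089 on the plus strand. dpy-11 (WBGene00001073) lies on V from 6511583 to 6515240 on the minus strand.

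The depth was 7563687 to 19815884 gene counts a library (median 9650171). All 9 members were among the 15508 genes with enough counts to be tested. Their counts ranged between 13 for phy-2 and 13004 for pdi-2 in single libraries, so phy-2 and tsp-15, with 24 to 204 counts, carry the largest counting error relative to their level. Levels are TMM-scaled CPM on a fixed scale, in which the counts of each library are first multiplied by its TMM factor. These factors ranged between 0.781 and 1.24, so a level is not the plain share of the library's counts. Log2 differences are given with their standard error (SE). Whether strand was used in counting is not given in the sources used here. Exons of tsp-15 share 57 bp with madd-4 on the opposite strand, which had 14888 counts over the 30 libraries against 2111 for tsp-15. If strand was not used, reads there cannot be told apart. The region of bli-4 also holds an intronic noncoding RNA gene on the same strand, K04F10.9, with 4018 counts, against 54269 for bli-4. bli-3 has a close sequence relative, duox-2, whose end lies 1402 bp away, so reads of these genes could be shared.

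Per kilobase of exon, transcripts of pdi-2 stood far above the other members. At 72 h pdi-2 had 314 ± 49.0 CPM per kb in irld and 306 ± 69.9 in N2 (SD, n = 3 each), and at 6 h it had 271 ± 39.4 in irld and 300 ± 39.4 in N2. At 6 h in irld the next level was that of mlt-7 with 43.9 ± 16.9, followed by dpy-11 with 33.1 ± 2.91, bli-4 with 29.9 ± 6.03, dpy-31 with 20.3 ± 2.51 and dpy-18 with 18.2 ± 8.05 CPM per kb. tsp-15 with 8.50 ± 1.47, bli-3 with 7.87 ± 0.849 and phy-2 with 4.68 ± 1.32 CPM per kb were lowest. Taking 1 SD to either side of the means, neighbours in this order below pdi-2 lay within their spread of each other, except for bli-4 above dpy-31, dpy-18 above tsp-15 and bli-3 above phy-2. At 72 h dpy-11 was second in both strains, with 59.9 ± 8.57 CPM per kb in irld and 59.4 ± 3.84 in N2. The place of bli-4 depends on the length taken for its 11 annotated transcripts: on the longest transcript it had 49.7 CPM per kb in irld at 6 h.

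**Figure D1:**
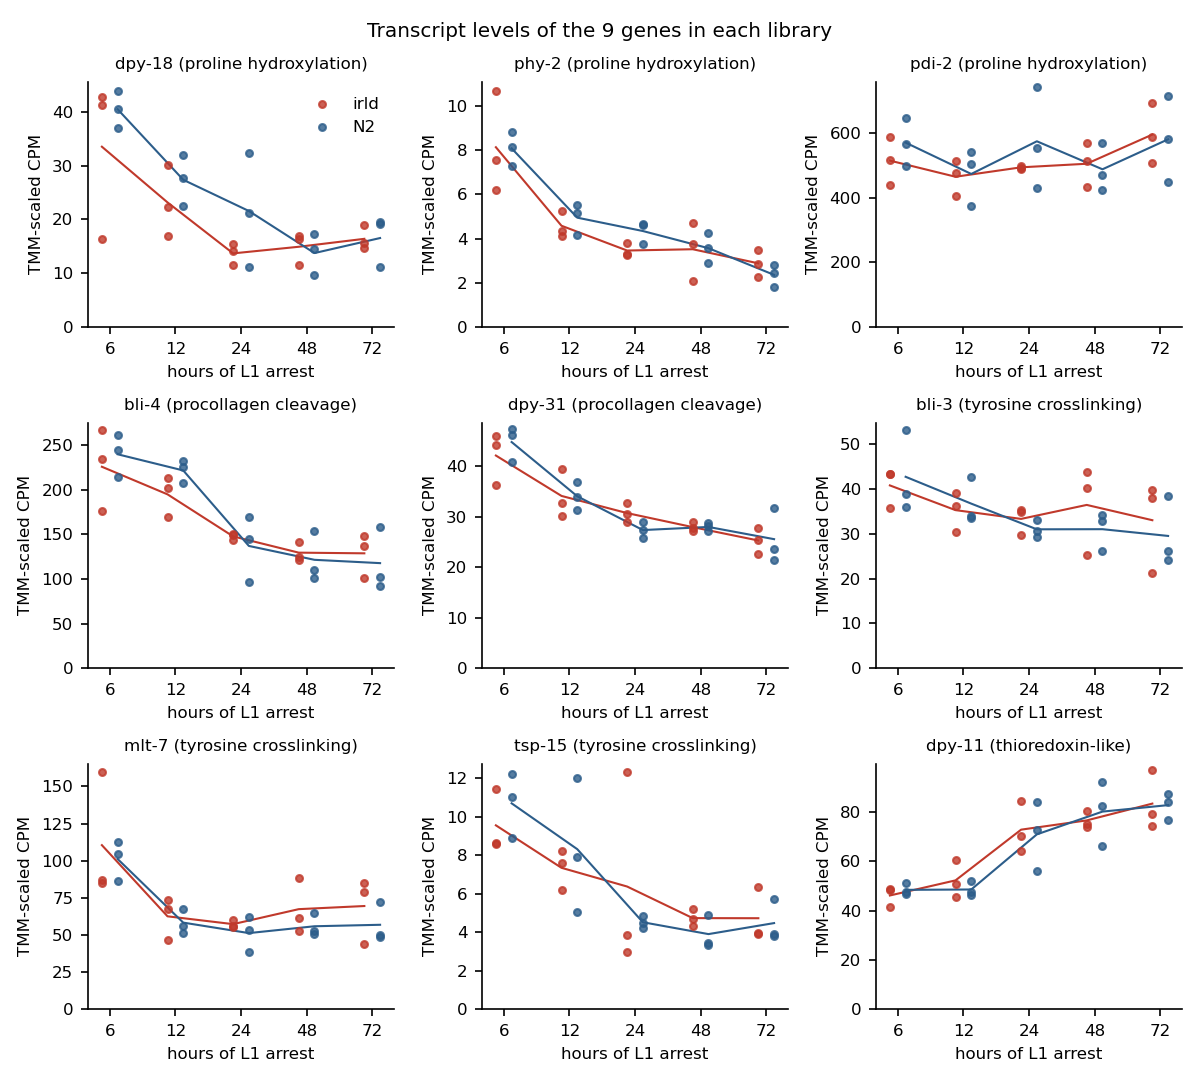
TMM-scaled CPM (vertical axes, from 0) of each gene against hours of L1 arrest (horizontal axes, categories not to scale) in irld (red) and N2 (blue). Points are libraries, 3 per group, and lines join the group means. On this TMM scale dpy-11 lies higher and phy-2 lower at 24 h and later than at 6 h in every library. pdi-2 overlaps at all times. On ERCC scaling the log2 difference of dpy-11 at 72 h was -0.64 in irld and 0.44 in N2, neither called. At 24 and 48 h it was negative on that scale in both strains.

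Of the prolyl 4-hydroxylase genes, both alpha subunits fell during arrest and the beta subunit did not pass the test. dpy-18 encodes the main alpha subunit and phy-2 a second one that can partly stand in for it. phy-2 had 3.50, 2.87 and 2.27 CPM in irld at 72 h, against 6.19, 7.54 and 10.7 CPM at 6 h, and in N2 it had 1.82, 2.80 and 2.46 CPM at 72 h, against 8.82, 8.14 and 7.29 CPM at 6 h. Every 72 h library lay below every 6 h library of its strain. The log2 difference, 72 h less 6 h, was -1.50 ± 0.26 in irld (edgeR adjusted p = 4.66e-05) and -1.77 ± 0.27 in N2 (edgeR adjusted p = 5.84e-06), the largest fall among the 9 genes in each strain.

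dpy-18 had 15.7, 14.6 and 18.9 CPM in irld at 72 h, against 16.4, 41.3 and 42.8 CPM at 6 h. One irld library at 6 h, replicate 1, was as low as the 72 h libraries, so these groups overlapped. In N2 they did not: dpy-18 had 11.1, 19.1 and 19.5 CPM at 72 h, against 43.9, 37 and 40.4 CPM at 6 h. Its log2 difference was -1.03 ± 0.33 in irld (edgeR adjusted p = 0.0131) and -1.29 ± 0.33 in N2 (edgeR adjusted p = 0.00239). Without irld 6 h replicate 1 the irld difference was -1.36 (edgeR adjusted p = 7.80e-04). Leaving out irld 6 h replicate 2 or replicate 3, or irld 72 h replicate 2, ended the call, with values of -0.81, -0.79 and -0.96.

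pdi-2 encodes the beta subunit, a protein disulfide isomerase that also serves other proteins of the endoplasmic reticulum. It had 506, 588 and 692 CPM in irld at 72 h, against 438, 518 and 588 CPM at 6 h. In N2 it had 448, 581 and 713 CPM at 72 h, against 498, 566 and 647 CPM at 6 h. The groups overlapped in both strains. Its log2 difference was 0.21 ± 0.19 in irld, with a 95% interval between -0.19 and 0.61, and 0.03 ± 0.19 in N2, with an interval between -0.37 and 0.42 (edgeR adjusted p = 0.391 and 0.924).

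The balance of transcripts for the subunits was also read within each library. The CPM per kb of pdi-2 divided by the summed CPM per kb of dpy-18 and phy-2 was 29.7 ± 3.84 in irld at 72 h, against 13.1 ± 4.69 at 6 h, and 30.1 ± 4.06 in N2 at 72 h, against 11.4 ± 2.06 at 6 h (SD, n = 3 each). At 12, 24 and 48 h it was 16.6, 27.8 and 26.7 in irld and 14.1, 22.4 and 27.9 in N2. In neither strain did the libraries at 72 h overlap with those at 6 h. Among the alpha subunits, dpy-18 had a higher level per kb than phy-2 in every library, with group means of the ratio between 3.6 in N2 at 48 h and 6.54 in N2 at 72 h.

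Both protease genes fell. bli-4 encodes a proprotein convertase of the kex2/subtilisin type that acts on the amino-terminal side of cuticle collagens. It had 149, 137 and 101 CPM in irld at 72 h, against 177, 234 and 267 CPM at 6 h, and in N2 159, 92.6 and 102 CPM at 72 h, against 261, 244 and 214 CPM at 6 h. No library at 72 h reached the lowest at 6 h in either strain. The log2 difference was -0.81 ± 0.21 in irld (edgeR adjusted p = 0.00235) and -1.03 ± 0.21 in N2 (edgeR adjusted p = 2.13e-04).

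dpy-31 encodes an astacin metalloprotease related to vertebrate BMP-1, which acts on the carboxy-terminal side of the cuticle collagen SQT-3. Its levels were 22.7, 25.5 and 27.7 CPM in irld at 72 h, against 36.2, 44.2 and 46.1 CPM at 6 h. In N2 they were 23.6, 31.7 and 21.5 CPM at 72 h, against 40.9, 46.2 and 47.4 CPM at 6 h. The groups were apart in both strains, and the SE was the smallest of the 9 genes. As a log2 difference this was -0.74 ± 0.14 in irld (edgeR adjusted p = 8.90e-05) and -0.81 ± 0.14 in N2 (edgeR adjusted p = 2.30e-05).

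The genes for tyrosine crosslinking had negative log2 differences at 72 h against 6 h in both strains, and bli-3 in irld was not called. Whether the extent differed between these genes was not tested. bli-3 encodes the dual oxidase that makes hydrogen peroxide at the hypodermal surface. It had 39.7, 38.1 and 21.3 CPM in irld at 72 h, against 43.3, 35.7 and 43.4 CPM at 6 h, and in N2 38.4, 24.1 and 26 CPM at 72 h, against 53.2, 38.9 and 36.0 CPM at 6 h. The libraries overlapped in both strains. The log2 difference was -0.31 ± 0.22 in irld (edgeR adjusted p = 0.265) and -0.54 ± 0.22 in N2 (edgeR adjusted p = 0.0448). The call in N2 was lost when any of the 6 h libraries, or replicate 2 or 3 at 72 h, was left out, with values between -0.30 and -0.59.

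tsp-15 encodes a tetraspanin that works with BLI-3 in the hypodermis. It had 3.89, 6.35 and 3.94 CPM in irld at 72 h, against 8.59, 8.62 and 11.5 CPM at 6 h, and in N2 3.79, 3.89 and 5.75 CPM at 72 h, against 11, 8.88 and 12.2 CPM at 6 h. The groups did not overlap in either strain. Its log2 difference was -1.01 ± 0.36 in irld (edgeR adjusted p = 0.0248) and -1.25 ± 0.37 in N2 (edgeR adjusted p = 0.00628). The irld call was lost without irld 6 h replicate 3 (-0.83) and without irld 72 h replicate 1 or 3 (-0.90 each).

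mlt-7 encodes a heme peroxidase that is needed for molting and uses hydrogen peroxide to join tyrosines. It had 85.2, 79.2 and 43.9 CPM in irld at 72 h, against 159, 84.7 and 87.2 CPM at 6 h. The irld groups met near 85 CPM, and irld 6 h replicate 1 stood well above every other library. In N2 the groups were apart, with 72.2, 49.6 and 48.6 CPM at 72 h, against 113, 104 and 86.3 CPM at 6 h. The log2 difference was -0.67 ± 0.26 in irld (edgeR adjusted p = 0.0378) and -0.83 ± 0.26 in N2 (edgeR adjusted p = 0.0100). Without irld 6 h replicate 1 the irld value was -0.31 (edgeR adjusted p = 0.337), and without irld 72 h replicate 3 it was -0.43 (edgeR adjusted p = 0.206).

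dpy-11, which encodes a membrane-anchored thioredoxin-like protein of the hypodermis that is needed for body shape, was the member that rose. It had 79.1, 97.0 and 74.3 CPM in irld at 72 h, against 48.4, 41.5 and 48.6 CPM at 6 h. In N2 it had 87.3, 76.9 and 84.3 CPM at 72 h, against 47.5, 46.6 and 51.2 CPM at 6 h. Every 72 h library lay above every 6 h library of its strain. The log2 difference was 0.85 ± 0.15 in irld (edgeR adjusted p = 5.15e-05), a 1.81-fold level, and 0.77 ± 0.15 in N2 (edgeR adjusted p = 1.35e-04), a 1.71-fold level. Scaled on library size alone, without TMM factors, the difference was smaller. It was then 0.39 in irld (edgeR adjusted p = 0.0102) and 0.25 in N2, not called (edgeR adjusted p = 0.0905). The ERCC control RNAs were dosed by total RNA, not per larva. Their share of reads differed widely between replicates. In irld it was 0.179%, 0.916% and 1.13% at 6 h, and 0.341%, 2.31% and 1.90% at 72 h. In N2 it was 0.381%, 1.10% and 0.875% at 6 h, and 0.255%, 1.93% and 1.27% at 72 h. Scaled on these controls, the log2 difference of dpy-11 was -0.64 in irld and 0.44 in N2, neither of which passed the test. At 24 and 48 h it was -0.61 and -1.0 in irld and -0.82 and -0.69 in N2. On that scale the median tested gene at 72 h moved by -1.58 in irld and -0.57 in N2, and dpy-11 lay 0.94 and 1.01 above that median.

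**Figure D2:**
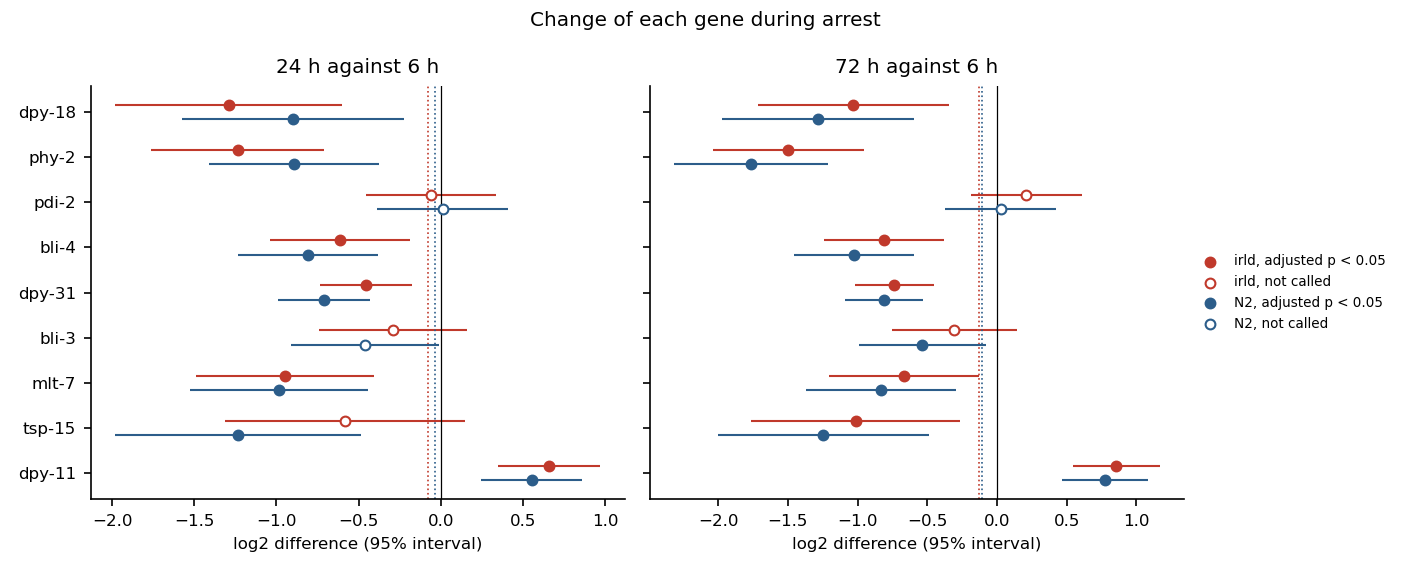
Log2 difference of each gene at 24 h against 6 h (left) and at 72 h against 6 h (right) in irld (red, upper of each pair) and N2 (blue), from the edgeR fit; bars are 95% intervals, filled points passed an adjusted p of 0.05 and dotted lines mark the median of all tested genes. At 72 h dpy-11 is the filled pair to the right of 0, and pdi-2 is open in both strains. On ERCC scaling dpy-11 is at -0.64 in irld and 0.44 in N2, not called in either.

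At 72 h against 6 h, 6 of the 9 genes fell and 1 rose in irld, where 26% of the 15508 tested genes fell and 20.6% rose. In N2, 7 fell and 1 rose, where 27.9% of tested genes fell and 23.1% rose. The median log2 difference of the members was -0.74 in irld and -0.83 in N2, and that of all tested genes was -0.13 in irld and -0.11 in N2. In each strain phy-2 was lowest and dpy-11 highest in this order. The share of reads of the ERCC controls differed widely between replicates at both times. Scaled on these controls, 2 members were called lower and 0 higher in irld, and 0 lower and 0 higher in N2. On that scale 3485 of the 15508 tested genes were called in irld, 1.46% of them higher. In N2 1873 were called, 9.13% of them higher. With 2 libraries a group, the falls in irld numbered 3 without the libraries numbered 2 and 2 without those numbered 3, and the falls in N2 numbered 4 without those numbered 2.

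Most falls had appeared by 24 h. At 12 h against 6 h no member passed the edgeR test in irld, where 4.34% of tested genes were called, or in N2, where 6.21% were. Before adjustment 3 had p below 0.05 in each strain: phy-2, mlt-7 and dpy-31. phy-2 was already below its 6 h libraries in every 12 h library of both strains, with log2 differences of -0.83 ± 0.25 in irld (edgeR adjusted p = 0.0568) and -0.70 ± 0.25 in N2 (edgeR adjusted p = 0.0903). mlt-7 was likewise apart, with -0.82 ± 0.26 in irld and -0.80 ± 0.26 in N2 (edgeR adjusted p = 0.0735 and 0.0681). DESeq2 called 2 members lower at 12 h in irld and 1 in N2, and limma-voom called 1 in each.

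At 24 h against 6 h, 5 members fell and 1 rose in irld, where 16.5% of tested genes fell and 14.1% rose. These were dpy-18 (-1.29 ± 0.33), phy-2 (-1.23 ± 0.26), mlt-7 (-0.95 ± 0.26), bli-4 (-0.61 ± 0.21) and dpy-31 (-0.46 ± 0.13), and the riser was dpy-11 (0.66 ± 0.15). In N2 the same 5 and tsp-15 (-1.24 ± 0.36) fell and dpy-11 (0.55 ± 0.15) rose, where 18.3% of tested genes fell and 15.9% rose. tsp-15 in irld at 24 h rested on unlike libraries, with 2.98, 3.83 and 12.3 CPM, and its difference was -0.58 ± 0.36 (edgeR adjusted p = 0.227). Without the third of them it was -1.48 (edgeR adjusted p = 0.00102). The number of falls in irld at 24 h was 3 without irld 6 h replicate 2 or replicate 3, 0 without all libraries numbered 2 and 2 without those numbered 3. In N2 it was 3 without those numbered 1 or 2. With ERCC scaling there were 0 lower and 0 higher members in irld and 2 lower and 0 higher in N2. The share of all tested genes called on that scale at 24 h is not given here.

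At 48 h against 6 h, 6 members fell and dpy-11 rose in each strain, where 23.9% of tested genes fell and 18.1% rose in irld and 25.6% fell and 20% rose in N2. The 6 were dpy-18, phy-2, bli-4, dpy-31, mlt-7 and tsp-15; in irld the number was 1 without the libraries numbered 2, and likewise without those numbered 3. Between 24 and 72 h little further change was detected. No member passed the edgeR test in irld, where 6.9% of tested genes did, and 0 had p below 0.05 before adjustment or were called by DESeq2 or limma-voom, with differences between -0.43 ± 0.37 for tsp-15 and 0.28 ± 0.26 for mlt-7. In N2, where 9.89% of tested genes did, 1 passed: phy-2 fell by a log2 value of -0.87 ± 0.27 (edgeR adjusted p = 0.0435), a call lost in 8 of the 9 fits that left out a library or a replicate number. Over all 5 times together, 6 members changed in irld, where 43.1% of tested genes did, and 7 in N2, where 49.6% did. pdi-2 and bli-3 changed in neither test, and tsp-15 did not in irld (edgeR adjusted p = 0.0829). The number of members called was 3 in each strain on ERCC scaling, for which the share of all tested genes is not given here. It was 2 in irld without the libraries numbered 2, and likewise without those numbered 3.

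The other counts were also set against the count of pdi-2 in the same library, a description that needs no scaling factor. It was chosen after the data were seen, because pdi-2 did not pass the test at any time. That does not show pdi-2 to be constant: its 95% interval in irld at 72 h reached 0.61. Any change of pdi-2 enters every ratio. So does the order of its libraries, of which number 1 was lowest in 9 of the 10 groups. With 0.5 added to every count, phy-2 had for each count of pdi-2 between 0.00337 and 0.00705 counts in irld at 72 h, against 0.0142 to 0.0182 at 6 h, and in N2 between 0.00354 and 0.00492 at 72 h, against 0.0113 to 0.0178 at 6 h. dpy-18 had 0.0250 to 0.0311 counts per pdi-2 count in irld at 72 h, against 0.0376 to 0.0799 at 6 h, so on this ratio the irld groups no longer overlapped. dpy-11 had 0.108 to 0.165 in irld at 72 h, against 0.0802 to 0.11 at 6 h, and these just met. The ratio was lower at 72 h with no overlap in both strains for dpy-18, phy-2, dpy-31 and tsp-15, and groups overlapped in both for bli-3 and mlt-7. For bli-4 it was lower with no overlap in irld alone, and for dpy-11 higher with no overlap in N2 alone. Groups that were apart on CPM overlapped on this ratio for mlt-7 and bli-4 in N2 and for dpy-11 in irld. How many of all genes lie apart on this ratio was not counted.

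**Figure D3:**
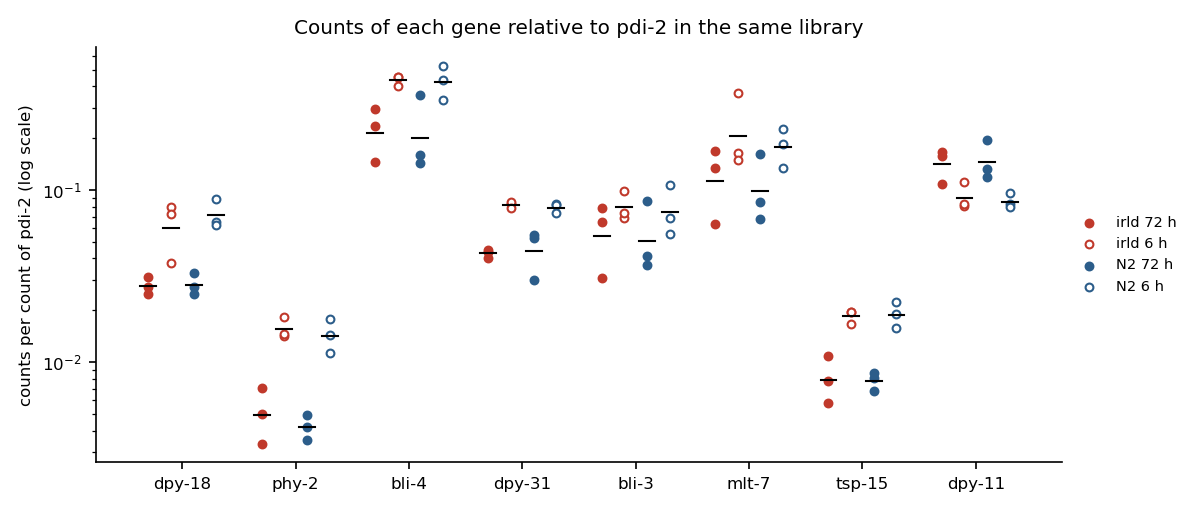
Counts of each gene per count of pdi-2 in the same library (vertical axis, log scale) at 72 h (filled) and 6 h (open) in irld (red) and N2 (blue). Points are libraries and bars geometric means of 3. phy-2, dpy-18, dpy-31 and tsp-15 lie lower at 72 h with no overlap in either strain. The share of all genes that lie apart on this ratio was not counted.

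These proteins act on the collagens of the cuticle. Of 20 cuticle collagens with a body shape, roller or blister mutant, 14 could be tested, and at 72 h against 6 h 7 fell and 1 rose in each strain, where 26% of tested genes fell and 20.6% rose in irld and 27.9% fell and 23.1% rose in N2. Their median log2 difference was -2.16 in irld and -3.49 in N2, beside -0.74 and -0.83 for the 9 members, and the difference between these lists was not tested. The 6 that were not called in irld differed widely. They were sqt-2 (-3.32 ± 1.69), dpy-13 (-1.13 ± 1.25), dpy-4 (-0.66 ± 0.98), lon-3 (-0.59 ± 0.78), dpy-8 (-0.46 ± 0.84) and bli-1 (0.15 ± 0.59). sqt-3, whose product DPY-31 cuts, had 10.7 ± 4.74 CPM in irld at 72 h, against 358 ± 165 at 6 h, and 6.43 ± 2.47 CPM in N2 at 72 h, against 528 ± 138 at 6 h (SD, n = 3 each). Its log2 difference was -5.06 ± 0.91 in irld and -6.37 ± 0.98 in N2 (edgeR adjusted p = 1.06e-04 and 1.31e-05). dpy-17, a collagen that works with SQT-3, differed by -4.31 ± 0.78 in irld and -5.38 ± 0.82 in N2, dpy-10 by -3.75 ± 0.72 and -6.32 ± 0.87, and dpy-2 by -3.74 ± 0.73 and -4.70 ± 0.75. The riser was dpy-5, named after its values were seen, with 4.66 ± 1.19 in irld and 5.67 ± 1.25 in N2 and a wide spread at 72 h, between 7.90 and 88.2 CPM in irld and between 12.2 and 150 CPM in N2.

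The basement membrane collagens, which are not part of the cuticle, gave 2 falls among 3 in each strain at 72 h against 6 h. Of all tested genes, 26% fell in irld and 27.9% in N2. let-2 and emb-9, the chains of type IV collagen, differed by -1.93 ± 0.23 and -1.47 ± 0.22 in irld and by -1.87 ± 0.23 and -1.29 ± 0.21 in N2. cle-1, of the type XVIII kind, differed by -0.03 ± 0.14 in irld and -0.04 ± 0.14 in N2.

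Among related hydroxylases, proteases, peroxidases and oxidases, 14 of 16 listed names were found and 10 could be tested; 3 fell and 1 rose in irld, and 4 fell and 2 rose in N2. Of all tested genes 26% fell and 20.6% rose in irld, and 27.9% fell and 23.1% rose in N2. doxa-1, the maturation factor that BLI-3 needs, fell in both strains. It had 1.99 ± 0.770 CPM in irld at 72 h, against 18.0 ± 6.96 at 6 h, and 0.666 ± 0.161 CPM in N2 at 72 h, against 21.4 ± 2.01 at 6 h. Its log2 difference was -3.17 ± 0.32 in irld and -4.97 ± 0.37 in N2 (edgeR adjusted p = 1.57e-08 and 7.22e-11). adt-2, a secreted metalloprotease of the ADAMTS kind, differed by -2.44 ± 0.28 in irld and -2.28 ± 0.28 in N2, and let-268, a lysyl hydroxylase for type IV collagen, by -1.86 ± 0.33 and -2.13 ± 0.33. egl-3, a proprotein convertase like BLI-4 that acts on neuropeptides in neurons, rose, with 1.86 ± 0.22 in irld and 2.07 ± 0.22 in N2. duox-2, the neighbour of bli-3, differed by -0.49 ± 0.32 in irld and -1.06 ± 0.33 in N2 (edgeR adjusted p = 0.218 and 0.00869).

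Of 16 genes for folding and secretion in the endoplasmic reticulum, 3 fell and 3 rose in irld and 6 fell and 4 rose in N2, beside the same shares of all tested genes. The risers in both strains were the chaperone genes crt-1, for calreticulin (1.36 ± 0.18 in irld and 1.59 ± 0.18 in N2), and cnx-1, for calnexin (0.97 ± 0.12 and 1.09 ± 0.12), and pdi-3, another disulfide isomerase (0.88 ± 0.14 and 0.79 ± 0.14). fkb-5, a prolyl isomerase gene, fell, with -2.90 ± 0.53 in irld and -3.17 ± 0.54 in N2. Set beside these genes, pdi-2, with 0.21 and 0.03, lay between the rising chaperones and fkb-5. In irld the genes of this list that were not called lay there too.

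**Figure D4:**
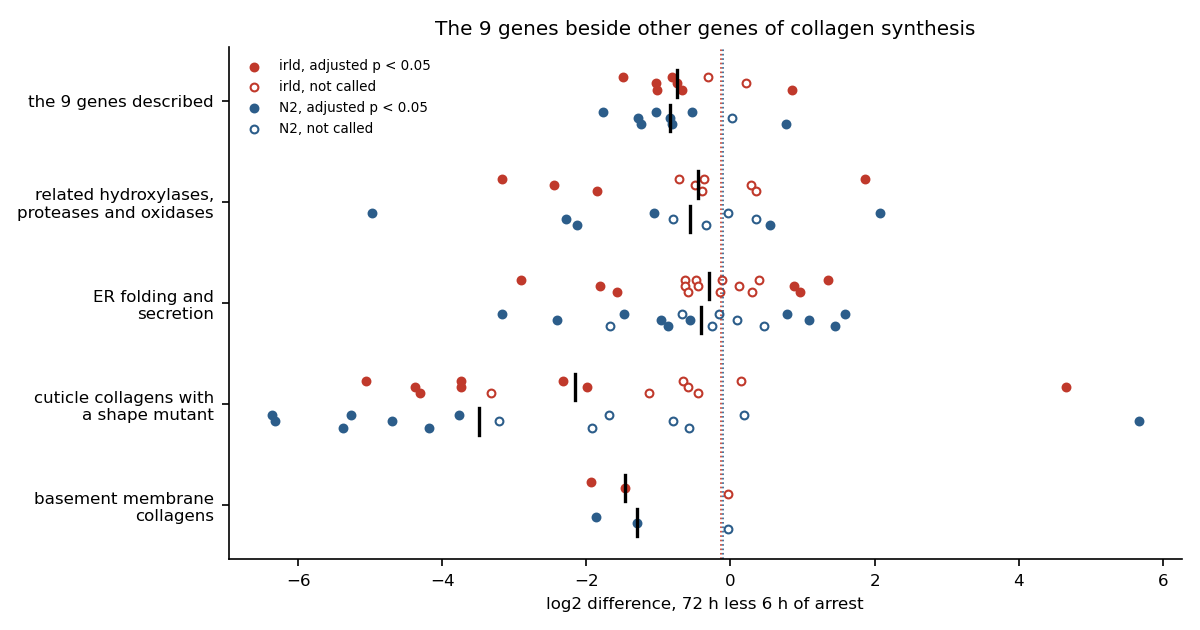
Log2 difference at 72 h against 6 h (horizontal axis) of the 9 genes described and of the tested genes of 4 lists, in irld (red, upper band of each pair) and N2 (blue). Filled points passed an adjusted p of 0.05, black bars are list medians and dotted lines the median of all tested genes; the cuticle collagens spread to -5.06 in irld and -6.37 in N2.

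Some markers of the hypodermis, the tissue that makes the cuticle, fell as well. Of 6 markers, 0 rose and 3 fell in each strain at 72 h against 6 h: vab-10 and nhr-25 in both, elt-1 in irld and che-14 in N2. Of all tested genes 26% fell and 20.6% rose in irld, and 27.9% fell and 23.1% rose in N2. None of the markers was at 0 in any group. Their summed level was 907 to 984 CPM in irld at 72 h, against 1495 to 2170 at 6 h, and 747 to 1220 CPM in N2 at 72 h, against 1289 to 2273 at 6 h. vab-10 alone made up 80.4% to 93.8% of this sum in these groups, and the other 5 together had 130.7 to 179 CPM in irld at 72 h, against 134 to 185 at 6 h, and 129 to 158 CPM in N2 at 72 h, against 159 to 175 at 6 h. lin-26, which specifies hypodermal cells, differed by 0.13 ± 0.14 in irld and -0.02 ± 0.14 in N2, and elt-3 by 0.34 ± 0.18 and 0.22 ± 0.18. In these libraries of whole larvae, fewer cells of a type and less RNA per cell cannot be told apart, and the part of the markers' change in the falls of the 9 genes was not tested. Yolk genes of adults summed to between 4.02 and 23.9 CPM and sperm protein genes to between 0.274 and 5.23 CPM in any library. In each group 10 to 18 of the 31 sperm protein genes were at 0, and none of the 6 yolk genes was.

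The comparison of the genotypes asked whether the irld-39 and irld-52 alleles alter these genes during arrest. Averaged over the 5 times, the differences, irld less N2, lay between -0.22 ± 0.15 for dpy-18 and 0.19 ± 0.12 for mlt-7. The others were 0.10 ± 0.16 for tsp-15, 0.08 ± 0.10 for bli-3, -0.06 ± 0.09 for pdi-2, -0.04 ± 0.12 for phy-2, 0.01 ± 0.09 for bli-4, 0.01 ± 0.06 for dpy-31 and 0.00 ± 0.07 for dpy-11. edgeR called 0 of the 9 and 0% of the 15508 tested genes. Before adjustment 837 had p below 0.05, a threshold that a share of about 0.05 passes when no gene differs. At single times between 171 and 446 genes had p below 0.05. Neither DESeq2 nor limma-voom called any (0 genes each), and of the 9 members 0 had p below 0.05 before adjustment. The 95% intervals were narrowest for dpy-31, with irld at between 0.925 and 1.10 times N2 by fold, and widest for tsp-15 and dpy-18. Among all 45 pairs of a member and a time, the irld and N2 libraries overlapped in 45. How often they overlap among all tested genes was not counted.

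At single times the widest difference was that of dpy-18 at 24 h. It had 11.5, 14.1 and 15.5 CPM in irld, against 11.2, 32.4 and 21.1 CPM in N2, a log2 difference of -0.66 ± 0.33 (edgeR unadjusted p = 0.0608). The N2 libraries were far apart and the groups overlapped. Next was tsp-15 at 24 h, with 0.50 ± 0.37, which includes the irld library at 12.3 CPM. In the change between 6 and 72 h the strains differed by between 0.07 ± 0.19 for dpy-31 and 0.27 ± 0.37 for phy-2, and 0 of the 9 passed this test or the test of a strain difference that changes with time. In the authors' deposited table, which tests the strains over the 5 times, the FDR of each of the 9 genes was 0.999958, with p-values between 0.379 for dpy-18 and 0.961 for dpy-11.

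**Figure D5:**
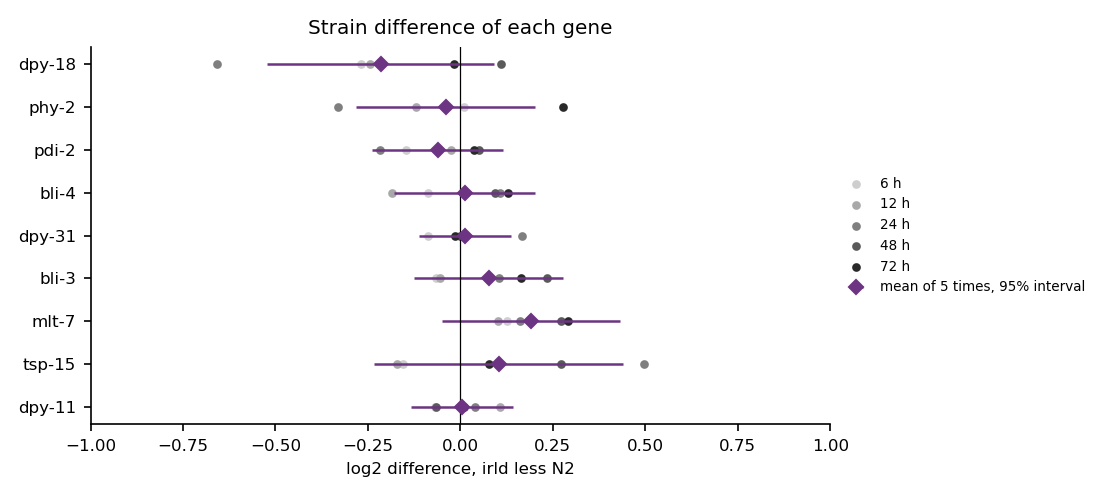
Log2 difference, irld less N2, of each gene as the mean over the 5 times (diamonds, with 95% intervals from the edgeR fit) and at single times (grey points, darker for later). Each interval includes 0, and the widest single-time value is dpy-18 at 24 h.

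Replicates of one number tended to share their place within a group for some members. The library numbered 1 was lowest for pdi-2 in 9 of the 10 groups and for dpy-18 in 8, and highest for bli-3 and mlt-7 in 9. Among the 11771 genes with a mean of at least 2 CPM, 17.9% had some number lowest or highest in at least 8 of 10 groups. For the other 5 members no number did so. What the numbers share beyond the label is not given in the sources used here.

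Likeness between the members' time courses was measured as the mean absolute difference of the 10 group means of log2(CPM + 0.5), each centred on its own mean. bli-4 and tsp-15 were closest, at 0.086, and dpy-31 and bli-3 next, at 0.104, while dpy-18 and dpy-11 were farthest apart, at 0.753. dpy-18 and phy-2, the alpha subunits, lay 0.211 apart, and each lay farther from pdi-2, at 0.478 and 0.440. Among 7295 named genes with at least 2 CPM, those most like dpy-18 were lron-10 (0.10) and cysl-1 (0.107), and those most like phy-2 were acdh-12 (0.077) and gly-5 (0.079). pdi-2 was closest to cyy-1 (0.041) and pmp-3 (0.053), bli-4 to elp-1 (0.050) and jph-1 (0.054), and dpy-31 to gck-1 (0.030) and unc-11 (0.041). bli-3 was closest to abts-1 (0.039) and taap-1 (0.046), mlt-7 to abt-4 (0.072) and sma-6 (0.079), tsp-15 to dnj-20 (0.055) and skr-21 (0.056), and dpy-11 to tgt-1 (0.035) and fum-1 (0.043). For a member, the median distance to all candidates was between 0.255 for pdi-2 and 0.464 for dpy-18.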

How the data were processed

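Per the submitters' processing notes, reads were aligned with Bowtie 1.2.2 and counted with HTSeq 0.11.2, and the authors used edgeR 3.24.4. Deposited counts are raw, whole numbers per gene; each of the 30 sample files equalled its column of the series table. The authors' table gives log2 fold changes, mean log2 CPM, an F score, a p-value and an FDR; the deposited CPM values were not used. Here the counts were fitted with edgeR 4.0.16 in R 4.3.3 (TMM scaling, filterByExpr by group, robust quasi-likelihood F-tests, 1 coefficient per group over 30 libraries); adjusted p is Benjamini-Hochberg over 15508 genes, threshold 0.05. The biological coefficient of variation was 0.256. Of gene identifiers, 93.9% had a symbol, and ERCC sequences took 0.179% to 2.31% of reads; 35.3% to 40.7% were not aligned. The steps were tested on simulated data. Alternatives were other scalings, no filter, DESeq2 1.42.0, limma-voom 3.58.1, a replicate block, libraries left out and 2-group fits. The members and lists were chosen with earlier results of these data known. The naming rule takes all members, the 2 genes most like each, and up to 4 tested genes per list with the smallest p at 72 h against 6 h in irld. Replicates of a group differed beyond sampling noise, and none was a copy of another. The labels call them biological, with no word on separate cultures, so p-values measure the spread between these samples.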

Additional observations from a re-analysis of the deposited data

How the results depend on the processing

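Scaled on the ERCC spike-in, irld had 0 higher and 0 lower members at 24 h, 0 higher at 48 h, 0 higher and 2 lower (phy-2 and tsp-15) at 72 h and 3 called over all times. On it N2 had 0 higher and 2 lower at 24 h, 0 higher at 48 h, 0 higher and 0 lower at 72 h, 0 lower at 72 h against 24 h and 3 called over all times. dpy-11 turned on that scale to -0.61, -1.0 and -0.64 in irld at 24, 48 and 72 h, and to -0.82 and -0.69 in N2 at 24 and 48 h. With library size alone, 1 member was lower at 12 h in each strain, and 0 were higher in N2 at 24 or 72 h; the median gene then moved by -0.59 in irld and -0.63 in N2 at 72 h, and 21% and 21.1% of calls were higher. On the ERCC scale 1.46% and 9.13% of calls were higher. At 72 h the N2 call of bli-3 was lost with DESeq2 size factors and with upper quartile scaling (edgeR adjusted p = 0.0628 and 0.111). Upper quartile scaling also ended the irld call of mlt-7 at 72 h (edgeR adjusted p = 0.0790). At 12 h DESeq2 gave 2 lower in irld and 1 in N2, limma-voom 1 in each, and the N2 pair fitted alone 1. The 24 h irld pair fitted alone gave 3 lower. phy-2 at 72 h against 24 h in N2 was lost (0 called) with no filter, with limma-voom and in the pair alone.

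Replicate numbers were checked for pairing: 90 of 135 same-numbered pairs correlated above 0.1 (median 0.181, lowest -0.516; median for other numbers -0.111). Not every pair was above 0.1, and the labels tie the numbers to no shared batch, so the numbers were not used as pairs. That 20 of 30 libraries correlated best with their own number is a hint of pairing from the data, not the design. With the replicate block, 2 members were lower at 12 h in irld and 2 in N2, and bli-3 was also called in N2 at 24 h (-0.44) and 48 h (-0.44). Leaving out libraries, singly or by number, gave 0 to 1 lower in irld at 12 h, 0 to 5 at 24 h, 1 to 5 at 48 h and 2 to 5 at 72 h, and 2 to 7 called over all times. In N2 it gave 3 to 6 lower and 0 to 1 higher at 24 h (dpy-11 was lost without N2 24 h replicate 1), 4 to 7 lower at 72 h and 0 to 1 lower at 72 h against 24 h. Where 2 libraries of a group remain, the fit pools their spread with the other groups. The strain counts remained 0 of the 9 members under every alternative run. The cause of these changes was not tested.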
